A study of Mus musculus with 18 samples.

Results

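Genes of extracellular purine signalling were followed through retinal microglia and the other cells of the mouse retina, 10 in all: the nucleotide receptor genes P2ry6, P2ry13, P2rx4 and P2rx7, the adenosine receptor genes Adora1 and Adora3, the ectonucleotidase genes Entpd1, Entpd2 and Nt5e, and the related receptor gene Gpr34. They were taken by name, and all 10 are among the 55487 genes of the count table. Retinas of Bmal1-mg/-mg mice (knockouts, which lack the clock gene Bmal1 in microglia) and of Bmal1f/f mice (controls, with floxed Bmal1) were dissociated and sorted by flow cytometry. Cells carrying the myeloid surface protein CD11b formed the microglia fraction and cells without it the retina fraction, and DAPI-stained dead cells were removed from both. RNA sequencing gave 5 knockout and 4 control libraries of each fraction, 18 in all. The driver of the deletion, the age of the mice and the hour of collection are not given in the sources used here. No label states that the libraries of a group were made from different mice, so the p-values below speak only to how far these libraries vary, which may be technical.

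Damaged or active cells release ATP, ADP and UDP, which act on P2X ion channels and on P2Y receptors coupled to G proteins. Ectonucleotidases on cell surfaces then take the phosphates off: CD39, the product of Entpd1, turns ATP and ADP into AMP, and CD73, the product of Nt5e, turns AMP into adenosine, which acts on receptors such as A1 and A3. Microglia use this system to sense injury, extend their processes and take up debris, while CD73 is known in the mouse retina as a surface protein of rods.

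Totals ran from 32277156 to 47563119 counts per library, so that 3 counts stood for between 0.0631 and 0.0929 CPM (a gene's count as a share of the library's total, brought to a common depth). Microglia and rod markers matched the labels of the fractions. The 15 microglia markers summed to between 70040 and 75480 CPM in knockout microglia and between 68620 and 72560 CPM in control microglia, against 8.83 to 23.7 CPM in knockout retina and 10.8 to 27.9 CPM in control retina. Rod markers summed to between 5466 and 12500 CPM in microglia of both genotypes, so rod RNA was present in every sorted microglia library. The 10 Mueller glia markers, among them Apoe, which microglia also make, had summed medians of 5559 CPM in knockout microglia and 4750 CPM in knockout retina, and of 3040 CPM in control microglia and 2791 CPM in control retina. Taken singly, 1 of the 10 was higher and 7 were lower in knockout microglia than in knockout retina, and 1 was higher and 6 were lower in controls (edgeR). The 7 retinal ganglion cell markers had summed medians of 45.4 CPM in knockout microglia and 11.75 CPM in knockout retina, and of 41.4 CPM in control microglia and 9.56 CPM in control retina. Of those tested, 1 of 4 was higher in knockout microglia than in knockout retina and 1 of 5 in controls, with 0 lower (edgeR). Pou4f2 and Slc17a6 had 0 counts in both microglia groups. The part of Mueller glia and ganglion cells in the values below was not tested. Arntl, which encodes BMAL1, had 7.91, 1.91, 18.1, 22.1 and 13.2 CPM in knockout microglia replicates 1 to 5, against 21.3, 14.6, 9.29 and 26.6 CPM in control microglia replicates 1 to 4 (log2 change -0.44, SE 0.62, edgeR adjusted p = 0.999). In retina Arntl had 100.5, 84.8, 86.2, 95.4 and 134.7 CPM in knockouts, against 122.9, 128.9, 118.4 and 106.6 CPM in controls (log2 change -0.36, SE 0.17, edgeR adjusted p = 0.392). The counts cover the whole gene, and which part was deleted is not given in the sources used here, so this level checks the labels in no library. Replicate 1 of each group had 0 counts of the Y-linked gene Ddx3y, and the other 14 libraries had 144 to 1761. Xist, the transcript of the inactive X chromosome, had 1612 counts in knockout microglia replicate 1 and 490 in knockout retina replicate 1. It had 1751 in control microglia replicate 1 against 4 in control retina replicate 1. That retina library had next to none of either gene, so these genes do not settle whether the same number marks the same mouse.

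The promoters show how unlike these genes are in sequence, and whether they carry the letters that BMAL1 and the myeloid factor PU.1 read. RefSeq promoter windows (GRCm38.p6, 300 bases, 250 of them before the annotated start) were found for 8 of the 10 genes, 11 windows in all. The 250 bases before the start are shown for 2 microglia receptor genes with a match to the PU.1 core and for the 1 gene with a pair of E-box variants, with matches in capitals. They lie at chr3:59210883-59211132 (minus strand) for P2ry13, at chr3:105904171-105904420 (plus strand) for Adora3 and at chr2:25395624-25395873 (plus strand) for Entpd2.
P2ry13: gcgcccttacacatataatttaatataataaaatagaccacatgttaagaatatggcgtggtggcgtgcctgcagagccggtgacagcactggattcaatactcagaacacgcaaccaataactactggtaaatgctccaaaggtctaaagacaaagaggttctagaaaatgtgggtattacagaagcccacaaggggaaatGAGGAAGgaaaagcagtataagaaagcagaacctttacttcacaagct
Adora3: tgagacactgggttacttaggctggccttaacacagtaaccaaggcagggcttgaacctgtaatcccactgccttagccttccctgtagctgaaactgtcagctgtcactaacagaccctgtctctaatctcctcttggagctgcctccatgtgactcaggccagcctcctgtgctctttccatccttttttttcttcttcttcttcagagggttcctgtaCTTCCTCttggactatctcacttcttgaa
Entpd2: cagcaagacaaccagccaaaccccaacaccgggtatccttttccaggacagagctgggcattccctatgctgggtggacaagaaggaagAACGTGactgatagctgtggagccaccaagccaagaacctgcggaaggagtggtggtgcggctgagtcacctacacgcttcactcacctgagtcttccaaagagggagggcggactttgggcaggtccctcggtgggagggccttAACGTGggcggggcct
The PU.1 core was searched as GAGGAAG on both strands, and its match begins at position -48 from the start of P2ry13 and at -29 from that of Adora3, where it lies on the other strand as CTTCCTC. A further match each stood in the second windows of P2rx7 and Entpd1, which made 4 of 11 windows, against 13.6% of all 32851 windows. The E-box CACGTG, which BMAL1 and its partner CLOCK bind, was in 0 of the 11 windows, against 7.15% of all windows. Its variant CACGTT, shown in Entpd2 at -161 and -16 as AACGTG on the other strand, was also in the first window of Adora1, which made 2 of 11 windows against 4.68% of all. The windows also differ in base composition: 71.0% of the Nt5e window was G or C, against 42.3% of that of P2ry13 and a median of 52.7% over all windows. A match is a run of letters and not a measured binding site.

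Among the receptor genes, the P2Y receptors and Gpr34 had the highest mean levels in microglia and next to none in retina. P2ry13 (ENSMUSG00000036362, chromosome 3, 59207892 to 59210882, minus strand, GRCm38, inside the gene Med12l) encodes an ADP receptor. It had 1943, 1740, 2110, 1875 and 1763 CPM in knockout microglia, against 2010, 2108, 2206 and 2267 CPM in control microglia. It had 0 counts in all 5 knockout retina libraries, against 1 count over the 4 control retina libraries. Both microglia groups thus stood high with a narrow spread, and their ranges met. P2ry13 was higher in microglia than in retina in both genotypes (edgeR adjusted p = 3.22e-08 in knockouts and 6.47e-07 in controls). The count ratio was at least 122300-fold in knockouts, with 3 counts over the group as the floor, and 358600 in controls with a counting interval of 64360 to 14160000. Such intervals and floors hold counting error alone, because many reads can be copies of 1 molecule after amplification.

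Gpr34 (ENSMUSG00000040229, chromosome X, 13632089 to 13640858, plus strand, inside the gene Cask) encodes a receptor for the lipid lysophosphatidylserine that is related in sequence to the P2Y receptors. It had 1215, 1159, 1307, 1013 and 1158 CPM in knockout microglia, against 1207, 1319, 1417 and 1354 CPM in control microglia. All 9 retina libraries had 0 counts, so Gpr34 was the gene of the 10 with no read outside microglia. The ratio of microglia to retina was at least 76230-fold in knockouts and at least 73760-fold in controls (edgeR adjusted p = 3.86e-08 in knockouts and 3.03e-06 in controls).

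P2ry6 (ENSMUSG00000048779, chromosome 7, 100937630 to 100974649, minus strand) encodes the UDP receptor through which microglia are driven to engulf material. It had 506.5, 596.2, 579.0, 520.6 and 456.8 CPM in knockout microglia, against 460.0, 467.9, 546.2 and 412.1 CPM in control microglia. The groups overlapped, with the highest library among the knockouts and the lowest among the controls. Retina libraries had 0 counts in knockouts and 2 in controls, both in replicate 3. The ratio of microglia to retina was at least 34450-fold in knockouts, and 39580 with a counting interval of 10960 to 326800 in controls (edgeR adjusted p = 9.16e-08 in knockouts and 3.61e-06 in controls).

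**Figure D1:**
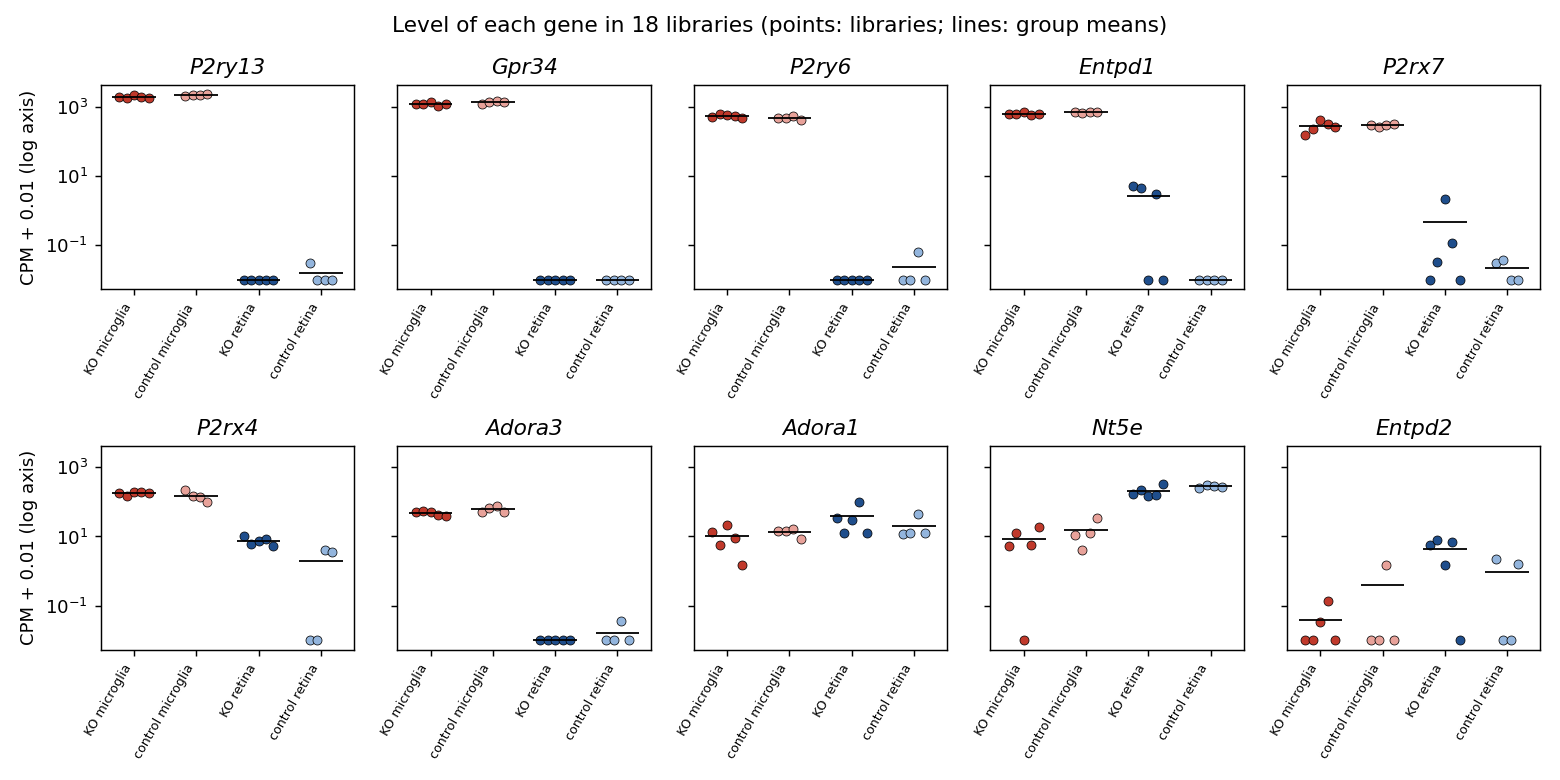
Level of each of the 10 genes in every library, as CPM plus 0.01 on a log axis. Points are libraries and lines are group means; knockout and control stand side by side within each fraction, and the retina points of P2ry13, Gpr34, P2ry6 and Adora3 lie at or next to 0 counts.

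The P2X channels were microglial genes too, but with reads in retina. P2rx7 (ENSMUSG00000029468, chromosome 5, 122643911 to 122691432, plus strand) encodes a channel that opens at high ATP and starts the NLRP3 inflammasome. It had 151.7, 226.8, 417.7, 310.3 and 257.8 CPM in knockout microglia, against 301.6, 252.0, 299.1 and 303.0 CPM in control microglia. The means were close (273 ± 99.3 CPM in knockouts and 289 ± 24.6 CPM in controls, SD, n = 5 and 4), while the knockout libraries spread over a 2.75-fold range and the controls over a 1.20-fold range. In retina it had 0, 1, 78, 4 and 0 counts in knockouts, against 1, 1, 0 and 0 counts in controls, so 78 of the 83 knockout reads came from replicate 3. P2rx7 was higher in microglia in knockouts (log2 change 9.38, SE 1.46, edgeR adjusted p = 0.000424), and by a log2 change of 13.11 without knockout retina replicate 3. In controls the count ratio was 24150 with a counting interval of 6686 to 199400 (edgeR adjusted p = 1.3e-06).

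P2rx4 (ENSMUSG00000029470, chromosome 5, 122707544 to 122729738, plus strand) encodes a channel of higher ATP sensitivity that spinal cord microglia raise after nerve injury. It begins 16111 bases beyond the end of P2rx7 on the same strand. It had 184.4, 148.4, 197.5, 197.2 and 174.6 CPM in knockout microglia, against 223.0, 143.8, 140.7 and 98.7 CPM in control microglia. Here the controls spread more, and they held both the highest and the lowest library. In retina it had 10.1, 5.95, 7.55, 8.61 and 5.36 CPM in knockouts, against 0, 0, 4.06 and 3.63 CPM in controls, so every knockout retina library was above every control one. P2rx4 was higher in microglia in knockouts (log2 change 4.73, SE 0.22, edgeR adjusted p = 8.42e-08) and in controls (log2 change 6.37, SE 1.64, edgeR adjusted p = 0.0154).

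Of the adenosine receptor genes, Adora3 was higher in microglia and Adora1 was not called between fractions by edgeR. Adora3 (ENSMUSG00000000562, chromosome 3, 105870858 to 105908926, plus strand) encodes the A3 receptor, which couples to inhibitory G proteins. It had 51.3, 55.0, 50.1, 40.7 and 38.0 CPM in knockout microglia, against 51.5, 66.5, 77.0 and 51.3 CPM in control microglia. Knockout retina had 0 counts, against 1 count over the control retina libraries. It was thus a microglial gene at a lower level than the P2 receptors, with a ratio to retina of at least 3064-fold in knockouts and of 10330 (counting interval 1854 to 408200) in controls (edgeR adjusted p = 2.2e-06 in knockouts and 6.6e-06 in controls). Its exons share 779 bases with Tmigd3 on the same strand, a gene with at most 42 counts in a library.

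Adora1 (ENSMUSG00000042429, chromosome 1, 134199223 to 134235431, minus strand) encodes the A1 receptor, which dampens transmitter release from neurons. It had 13.1, 5.49, 21.3, 8.83 and 1.44 CPM in knockout microglia, against 14.8, 14.2, 16.1 and 8.23 CPM in control microglia. In retina it had 34.1, 12.3, 29.3, 100.6 and 12.9 CPM in knockouts, against 12.2, 12.7, 45.2 and 12.9 CPM in controls. Knockout replicate 4 and control replicate 3 stood far above the other retina libraries of their groups. The difference between fractions was not called (log2 change -1.74, SE 0.77, edgeR adjusted p = 0.089 in knockouts; -0.61, SE 0.55, edgeR adjusted p = 0.413 in controls). Without control retina replicate 3 the control value turned to 0.17, and DESeq2 called the knockout one (adjusted p = 0.0358). Exons of Adora1 overlap those of Mybph on the opposite strand over 1162 bases. Mybph had 157 to 417 counts in each microglia library and 0 to 2 in retina, and whether counting used strand is not given in the sources used here, so reads of the overlap cannot be told apart.

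Among the ectonucleotidases, Entpd1 and Nt5e stood in opposite fractions. Entpd1 (ENSMUSG00000048120, chromosome 19, 40612366 to 40741602, plus strand) had 622.3, 602.3, 711.1, 564.5 and 588.8 CPM in knockout microglia, against 711.7, 651.9, 712.5 and 716.9 CPM in control microglia. In retina it had 188, 200, 0, 114 and 0 counts in knockouts, against 0 in all 4 controls. It was higher in microglia in knockouts (log2 change 8.06, SE 1.34, edgeR adjusted p = 0.00065), and at least 38910-fold in controls (edgeR adjusted p = 3.01e-06).

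Nt5e (ENSMUSG00000032420, chromosome 9, 88327197 to 88372092, plus strand) had 5.15, 12.3, 0, 5.76 and 18.2 CPM in knockout microglia, against 11.4, 3.93, 12.3 and 34.0 CPM in control microglia. In retina it had 170.3, 215.2, 151.2, 155.5 and 318.7 CPM in knockouts, against 251.8, 306.0, 281.7 and 275.1 CPM in controls. Every retina library was above every microglia library. Nt5e was lower in microglia, by a log2 change of -4.49 in knockouts (SE 1.05, edgeR adjusted p = 0.00549) and of -4.13 in controls (SE 0.62, edgeR adjusted p = 0.00109). Its mean in microglia was 4.09% of that in retina in knockouts and 5.52% in controls, and the summed rod markers were at 5.71% in knockouts and 4.70% in controls. The part of carried rod RNA in the microglial reads of Nt5e was not tested.

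Entpd2 (ENSMUSG00000015085, chromosome 2, 25395874 to 25401321, plus strand) encodes NTPDase2, which prefers ATP and leaves ADP. It had 0, 0, 1, 4 and 0 counts in knockout microglia, against 0, 0, 64 and 0 in control microglia. In retina it had 205, 343, 56, 254 and 0 counts in knockouts, against 105, 0, 0 and 70 in controls. It was low everywhere and at 0 in some libraries of each group, and the filter on low counts kept it from the tests between fractions. Its exons share 612 bases with Npdc1 on the same strand, which had 77.5 to 118.8 CPM in retina.

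Between fractions, 7 of the 9 genes tested were higher and 1 lower in microglia than in retina, with the same genes in knockouts and in controls. Genes with next to no retina counts passed the filter on low counts through microglia alone. These were P2ry13, Gpr34, P2ry6 and Adora3 in both genotypes, and P2rx7 and Entpd1 in controls. For them no other direction was open. P2rx7 and Entpd1 in knockouts and P2rx4 in controls had counts in too few retina libraries to pass without microglia. For all of these the count of higher genes adds nothing to their values. Of all genes tested, 23.7% were higher and 21.2% lower in knockout microglia than in knockout retina, and 22.8% were higher and 17.4% lower in control microglia than in control retina. In this bulk measure, fewer cells of a type and less RNA per cell cannot be told apart.

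Scaled to exon length, the levels of the 10 genes in microglia kept the same order in both genotypes. P2ry13 averaged 746 ± 59.3 CPM per kb of exon in knockout microglia and 849.7 ± 44.6 in control microglia (SD, n = 5 and 4), and Gpr34 560.0 ± 51.1 and 633.6 ± 42.0. These receptor genes made up 44.2% and 33.2% of the summed length-scaled level of the 10 in knockouts, and 45.6% and 34.0% in controls. P2ry6 followed (184.2 and 163.3 CPM per kb in knockouts and controls), then Entpd1 (110.7 and 125.1), P2rx7 (45.7 and 48.4), P2rx4 (25.7 and 21.6) and Adora3 (12.6 and 16.5). Adora1 (1.74 and 2.30), Nt5e (0.962 and 1.79) and Entpd2 (0.0139 and 0.178) were lowest. Neighbours in this order were apart in every library of a genotype, except P2rx7 and P2rx4 in knockouts, P2rx4 and Adora3 in controls, and Adora1, Nt5e and Entpd2 in both. In retina Nt5e led in both genotypes (23.5 CPM per kb in knockouts and 32.4 in controls) and was above Adora1 (6.54 and 3.59) in every library. Entpd2 (2.04 and 0.451) and P2rx4 (1.07 and 0.274) came next and overlapped each other.

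**Figure D2:**
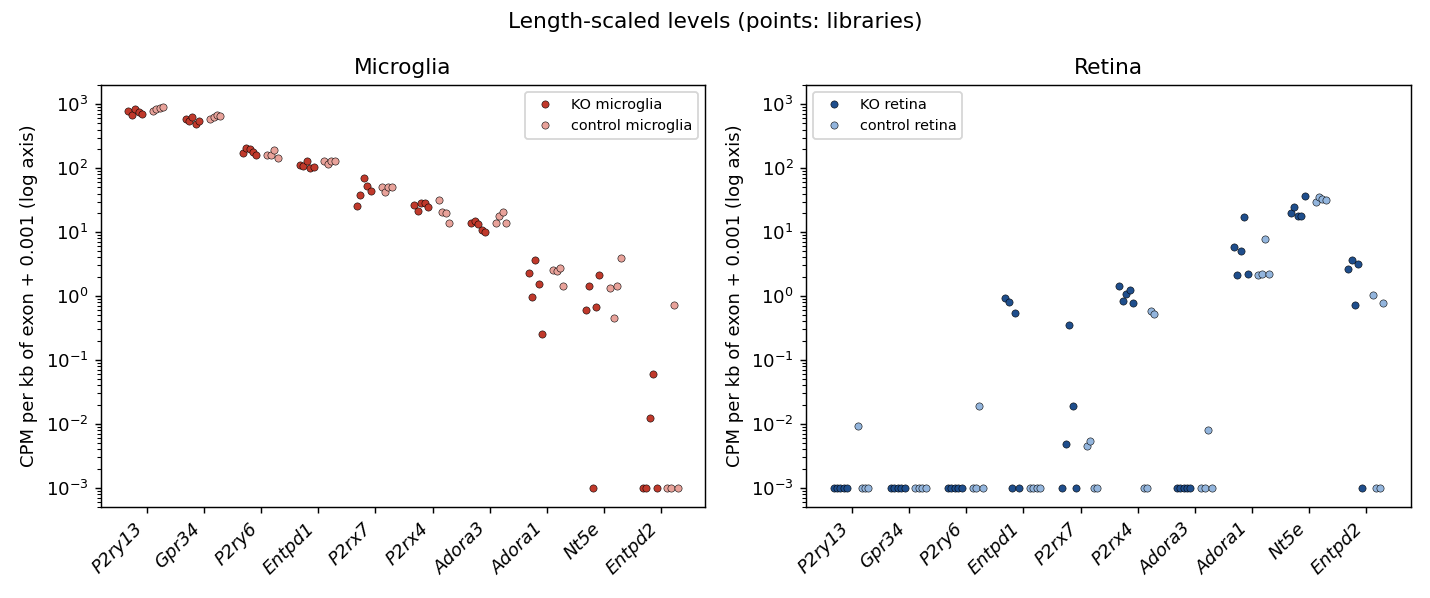
Length-scaled level (CPM per kb of exon plus 0.001, log axis) of the 10 genes, ordered by their mean in microglia, with microglia at the left and retina at the right. Points are libraries, knockout left of control; in retina the order is turned, with Nt5e and Adora1 on top.

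The genotype comparison asks whether microglia without Bmal1 carry these genes at another level. In microglia 0 of the 9 tested members were called by edgeR, with 0 at an unadjusted p under 0.05, and 0 were called by DESeq2 or limma voom; of all genes tested, 0.115% were called. The log2 changes were negative for 7 and positive for 2 (median -0.13, against -0.01 over all genes), and the smallest adjusted p was 0.943. For the abundant genes the intervals were narrow. The 95% interval of the log2 change was -0.31 to 0.04 for P2ry13 (change -0.14, SE 0.08), -0.32 to 0.06 for Gpr34 (-0.13, SE 0.08) and -0.31 to 0.06 for Entpd1 (-0.13, SE 0.08). P2ry6 had an interval of -0.05 to 0.50 (0.22, SE 0.12), P2rx4 of -0.18 to 0.78 (0.30, SE 0.21) and Adora3 of -0.78 to 0.10 (-0.34, SE 0.20). For P2rx7 it was -0.59 to 0.54 (-0.03, SE 0.25). Wider intervals went with the low genes: -1.82 to 1.12 for Adora1 (-0.35, SE 0.66) and -3.56 to 1.86 for Nt5e (-0.85, SE 1.21), so changes of severalfold in those genes could not have been detected. Entpd2 was not tested. For each of the 10 genes the knockout and control ranges overlapped, and the share of all genes with such overlap was not counted. The authors' deposited table lists 9 of the 10 genes in this comparison, 0 of them past an adjusted p of 0.05.

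**Figure D3:**
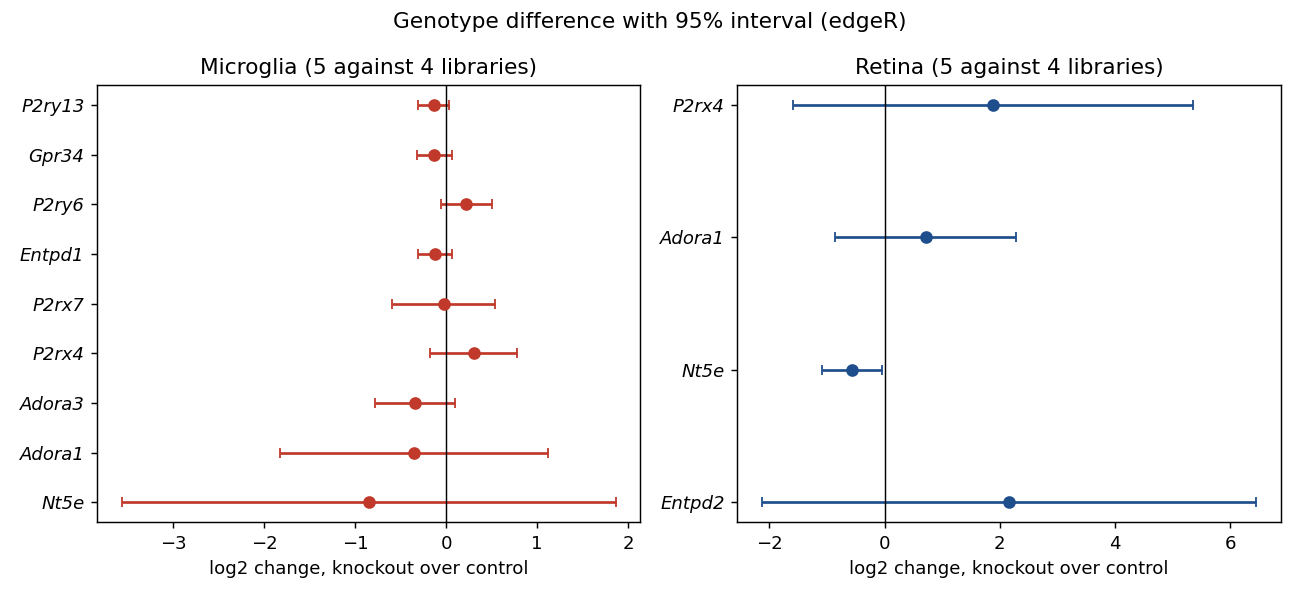
Log2 change of knockout over control with its 95% interval (edgeR) for the members tested, in microglia at the left and in retina at the right. In microglia every interval crosses 0, and in retina that of Nt5e lies below 0 before adjustment over all genes.

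In retina 4 members passed the filter on low counts, and 0 of them were called by edgeR, DESeq2 or limma voom, with 1 (Nt5e) at an unadjusted p under 0.05; of all genes tested, 1.66% were called. Since a gene could pass that filter through the group where it was high, the count and the values say nothing of the other 6 genes. Nt5e averaged 202 ± 69.9 CPM in knockout retina and 279 ± 22.3 CPM in control retina (SD, n = 5 and 4), with 4 knockout libraries below every control and knockout replicate 5 above every control. Its log2 change was -0.57 (SE 0.23, unadjusted p = 0.0379, edgeR adjusted p = 0.306). In the authors' deposited table Nt5e has a log2 change of -0.57 and an adjusted p of 0.121. Rod markers moved with it: 5 of 14 fell in knockout retina, all 14 had an unadjusted p under 0.05, and their median log2 change was -0.59. Their sums ran from 147400 to 174200 CPM in knockouts and from 185100 to 229800 CPM in controls. Per 1000 CPM of rod markers, Nt5e stood at 1.02, 1.24, 1.01, 1.06 and 1.89 CPM in knockout replicates 1 to 5, against 1.36, 1.33, 1.295 and 1.48 CPM in controls, and the same knockout library was the highest. With the rod level as a covariate the log2 change of Nt5e was 0.72. The rod sums did not overlap between genotypes, so that fit could hardly tell rod level from genotype, and it called 0 of all genes. The part of rod content in the retinal Nt5e values was not tested.

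P2rx4 had 7.52 ± 1.94 CPM in knockout retina and 1.92 ± 2.23 CPM in control retina (SD, n = 5 and 4), and its genotypes did not overlap. How large a share of all genes stood apart between the retina genotypes was not counted, here or for the genes named below. The P2rx4 log2 change of 1.88 had an SE of 1.55 and was not called (edgeR adjusted p = 0.697), with 0 counts in control replicates 1 and 2. Its level in retina was 4.17% of that in microglia in knockouts and 1.27% in controls, while the microglia markers summed to 0.0259% of theirs in knockouts and 0.0277% in controls, and 12 of the 15 markers had counts in each retina group. The markers at 0 were Itgam, Fcrls and Tyrobp in knockout retina and Fcrls, Siglech and Aif1 in control retina. Entpd2 (4.34 ± 3.40 CPM in knockouts and 0.960 ± 1.13 CPM in controls, log2 change 2.16, SE 1.91) and Adora1 (37.8 ± 36.4 CPM in knockouts and 20.8 ± 16.3 CPM in controls, log2 change 0.71, SE 0.70) did not pass either (edgeR adjusted p = 0.726 for Entpd2 and 0.762 for Adora1). The Adora1 change was 0.0043 without knockout retina replicate 4 and 1.49 without control retina replicate 3. Entpd1, with reads in 3 of 5 knockout libraries and no control library, was left out by the filter, and had an edgeR adjusted p of 0.229 to 0.275 in the 5 alternatives that tested it. Other cell types moved in the same libraries. Mueller glia markers (10 genes) summed to between 3474 and 6832 CPM in knockout retina and between 1515 and 4635 CPM in control retina. All 10 had a positive log2 change, with 0 called by edgeR. Endothelial and pericyte markers (8 genes) summed to between 200.4 and 486.1 CPM in knockout retina and between 91.1 and 237.3 CPM in control retina. Markers of border macrophages, monocytes and granulocytes summed to between 17.3 and 21.2 CPM in knockouts and between 0.212 and 5.75 CPM in controls, with 5 of 10 at 0 in each genotype (Cd163, F13a1, S100a9 and Ms4a7 in both). Cone markers summed to between 2316 and 6001 CPM in knockouts and between 590.4 and 1741 CPM in controls. Bipolar cell markers (10 genes) summed to between 1693 and 3199 CPM in knockouts and between 290.8 and 916.6 CPM in controls. Amacrine and horizontal cell markers (9 genes) summed to between 227.3 and 356.3 CPM in knockouts and between 61.9 and 160.0 CPM in controls, so these and the cone markers did not overlap between genotypes. The number of genes with a count was also higher in knockout retina (18761 to 19713, against 16510 to 18715 in controls). Their part in the retinal values of P2rx4, Adora1, Entpd1 and Entpd2 was not tested.

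**Figure D4:**
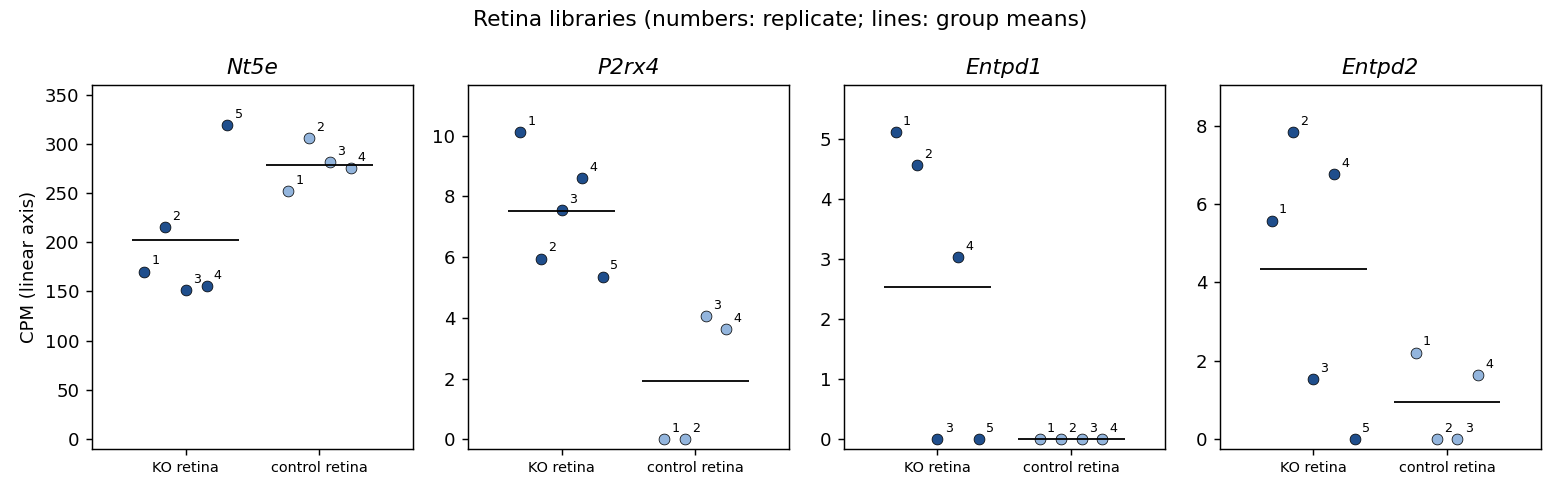
CPM of Nt5e, P2rx4, Entpd1 and Entpd2 in the retina libraries on a linear axis, numbered by replicate, with lines at the group means. Knockout replicate 5 is the highest for Nt5e and at 0 for Entpd1 and Entpd2, and the P2rx4 points of knockouts all lie above those of controls.

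Whether the genotype difference itself differed between fractions was tested over all 18 libraries. By edgeR 0 of the 10 members were called, with 2 at an unadjusted p under 0.05 (P2rx7, 0.0195, and Entpd1, 0.0012). Gpr34 had no retina counts, and P2ry6, P2ry13 and Adora3 next to none. These genes entered through microglia and had no measurable genotype difference in retina, so their tests could not decide. P2rx7 and Entpd1 also entered through microglia, since their retina counts alone were too few to pass the filter. Entpd1 had 0 counts in control retina, and most P2rx7 counts of knockout retina came from replicate 3. The values of both thus rest on few retina libraries and cannot decide either. Of all 18128 genes tested, 0.469% were called and 2271 had an unadjusted p under 0.05. DESeq2 called 1 member, Entpd1 (adjusted p = 0.000129), beside 1090 of all genes, and limma voom 0, beside 145. Entpd1 had an edgeR adjusted p of 0.0995, and it was called without knockout retina replicate 3 (adjusted p = 0.0405) or replicate 5 (0.0309), the 2 knockout retina libraries with 0 counts of it.

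The other genes of the system were taken as lists. Their counts stand beside 855 of 14835 genes at an unadjusted p under 0.05 in microglia and 2180 of 15332 in retina over all genes tested, and beside the shares called that were given above. As for the members, a list gene that is near 0 in one genotype entered a test only through the genotype where it was high, so counts over the genes tested do not speak for a whole list. By edgeR, the 11 other P2X and P2Y receptors had 4 genes tested and 0 called in microglia (1 at an unadjusted p under 0.05), and 2 tested and 0 called in retina (2 under 0.05). P2rx5, a channel subunit gene, had 159, 0, 72, 156 and 109 counts in knockout retina, against 0, 0, 0 and 2 in control retina. It passed the filter on low counts through the knockouts alone. Its edgeR adjusted p was 0.0969, DESeq2 called it (0.00203), and so did edgeR without knockout retina replicate 2 (0.04). Of the 2 other adenosine receptors, Adora2a, for a receptor that raises cyclic AMP, had 4.84, 0.798, 4.72, 1.07 and 2.86 CPM in knockout retina, against 0.0421, 0, 0.180 and 0 CPM in control retina. It too passed the filter through the knockouts alone. The Adora2a groups did not overlap, with an edgeR adjusted p of 0.0997 and a DESeq2 adjusted p of 0.000351. In microglia Adora2a had 457 counts in knockout replicate 2 and 0 in the other knockouts, against 67, 104, 76 and 0 counts in controls, and was not called. Neither adenosine receptor of this list was called by edgeR in either fraction (0 of 1 tested in microglia and 0 of 2 in retina, with 0 and 1 under 0.05).

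Of the 13 other ectonucleotidases, 0 of 8 tested in microglia and 0 of 6 in retina were called by edgeR, with 1 and 2 at an unadjusted p under 0.05. Enpp5, of the nucleotide pyrophosphatase family, had 330.9, 262.7, 279.4, 289.4 and 251.1 CPM in knockout retina, against 220.4, 162.3, 196.2 and 262.7 CPM in control retina (log2 change 0.34, SE 0.12, edgeR adjusted p = 0.228, DESeq2 adjusted p = 0.0477). Of 11 genes of adenosine uptake and breakdown, 0 of 8 and 0 of 7 were called, with 0 under 0.05 in both fractions. The smallest p there was that of the transporter gene Slc29a2 in retina (44.0 ± 9.99 CPM in knockouts and 59.2 ± 17.7 CPM in controls, edgeR adjusted p = 0.382). Of 8 genes of nucleotide release, 0 of 6 and 0 of 4 were called, again with 0 under 0.05. Calhm2, of the calcium homeostasis modulator channel family, had 62.2 ± 11.95 CPM in knockout microglia and 79.3 ± 13.3 CPM in control microglia (edgeR adjusted p = 0.962). DESeq2 and limma voom called 0 in these lists, apart from P2rx5, P2ry14, Adora2a and Enpp5 by DESeq2 in retina.

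All 9 genes of the list for P2X7 and the NLRP3 inflammasome were higher in microglia than in retina in knockouts and in controls (edgeR), beside 23.7% and 22.8% of all genes tested. Those near 0 in retina, such as Casp4 in controls, passed the filter through microglia alone, and no other direction was open to them. Between genotypes 0 of 9 tested in microglia and 0 of 4 in retina were called by edgeR, DESeq2 or limma voom, with 0 at an unadjusted p under 0.05. Casp4, for the caspase that senses bacterial lipid inside cells, had the smallest p (14.7 CPM in knockout microglia and 8.97 CPM in control microglia, log2 change 0.76, SE 0.44, edgeR adjusted p = 0.963). Of 6 genes of lysophosphatidylserine, the ligand of GPR34, 0 of 3 were called by edgeR in microglia and 0 of 3 in retina, with 2 and 0 under 0.05. Abhd16a, for a lipase that makes this lipid, had 123.8, 177.9, 148.7, 164.8 and 151.1 CPM in knockout microglia, against 101.8, 127.5, 93.4 and 97.2 CPM in control microglia. All its knockout libraries but replicate 1 lay above every control, and its log2 change of 0.60 (SE 0.15) was called by DESeq2 (adjusted p = 0.00829) and not by edgeR (0.302) or limma voom.

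Gnao1, for the neuronal inhibitory G protein subunit that adenosine A1 receptors use, was the 1 gene of these lists that edgeR called (1 of 9 tested of 10 G protein partners in retina, 4 under 0.05, and 0 of 9 in microglia, 0 under 0.05). It had 224.3, 242.2, 340.2, 345.6 and 191.1 CPM in knockout retina, against 96.6, 25.2, 54.5 and 96.1 CPM in control retina. Gnao1 rose in knockouts (log2 change 1.91, SE 0.35, edgeR adjusted p = 0.034), with no overlap between genotypes. DESeq2 called it with Gnai2, Gnaq and Prkca, and limma voom called it alone. Leaving out control retina replicate 3 or knockout retina replicate 1, 2, 3 or 4 gave edgeR adjusted p-values of 0.062 to 0.0854, and the replicate block gave 0.135. With the rod level as a covariate the Gnao1 change was 0.42, in a fit that could hardly tell rod level from genotype. The bipolar, amacrine and horizontal cell markers given above were also higher in every knockout retina library than in every control one, and their part in the Gnao1 value was not tested. In microglia Gnao1 had 14.04 CPM in knockouts and 18.9 CPM in controls, with a log2 change of -0.37.

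Over the 18 libraries, the genes most like each member in log2(CPM + 0.5) were sought among 12728 genes. These correlations mostly reflect the step between fractions and are given as a description. P2ry13 and Gpr34 were each other's closest gene (Pearson r = 0.9999), with Csf1r, the growth factor receptor gene of microglia, next. P2ry6 was closest to Mpeg1 (0.9999) and Spi1 (0.9998), which encodes PU.1, and Adora3 to Sall1 (0.9993), a transcription factor gene of microglia. Entpd1 followed Dock10 (0.9972) and Fmnl1 (0.9935), P2rx7 Slc25a45 (0.9984) and AI467606 (0.9981), and P2rx4 Tnfrsf21 (0.9884) and Irgm1 (0.9865). Nt5e was closest to Tmem108 (0.9915) and Dnajb2 (0.9851). Entpd2 (Kcnmb2, 0.8767, and Gpr37l1, 0.8616) and Adora1 (Sars2, 0.8135, and Cdkn2d, 0.7847) had no gene as close.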

How the data were processed

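RNA from the sorted cells (RNeasy Plus Micro kit) was amplified as cDNA with a SMARTer Ultra Low kit before paired sequencing on a NovaSeq X Plus, per the labels' protocols. The deposited values are raw read counts, 1 whole number for each gene in each of the 18 libraries. The submitters' processing notes name DRAGEN, STAR 2.7.9a, Subread, featureCounts 2.0.32, edgeR and limma, with the build GRCm38; whether counting used strand is not given in the sources used here. For each genotype comparison the authors also deposited log2 fold changes, p-values and the score of a likelihood ratio test, per the file headers; the other columns of those tables were not used here.

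The table had 55774 lines, of which 287 repeated an identifier and its counts; 55487 genes remained. All lines carried a name, and every sample column was used. Gene positions and union exon lengths came from GENCODE M21 (GRCm38). Printed CPM divide by the library total, with no further scaling, and CPM per kb divide that by exon length.

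The test was the quasi-likelihood F test of edgeR 4.0.16 in R 4.3.3, with TMM scaling and the filterByExpr filter. A gene was called when its p, adjusted by Benjamini and Hochberg over all genes tested, was under 0.05. Genotypes were compared within each fraction, fractions within each genotype, and the interaction over all libraries, 5 comparisons in all. Standard errors are the log2 change over the root of the F statistic. The script was tested on simulated data. The alternatives tried were no filter, the size factors of DESeq2, a filter of 1 CPM in 4 libraries, DESeq2 1.42.0, limma voom 3.58.1, the replicate number as a block, marker levels as covariates, and leaving out each library. Deviations of same-numbered libraries from their group means had correlations of at most 0.0618, so numbers were not taken to pair libraries.

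The members, gene lists and tests were chosen with earlier results of these data known. Named were all members, every list gene past the threshold between genotypes or else the one with the smallest p, and the 2 most correlated genes of each member. P2ry14, Gnai2, Gnaq and Prkca, and marker genes at 0, were added to the text with their values in view. Some genes that these rules and lists take are not reported here.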

Additional observations from a re-analysis of the deposited data

Results flagged for a closer look

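In 34 groups of 4 or 5 libraries that held counts of a member, 10 had a library far from the others of its group (Dixon's gap test at the 95% level). Chance gives about 1 in 20 groups where values follow a normal distribution, which CPM on a linear scale need not do. That rate does not hold for groups with reads in a single library, where the test marks that library by construction: P2ry6, P2ry13 and Adora3 in control retina and Entpd2 in control microglia. Of the 10, 4 rested on 4 counts or fewer: P2ry6 in control retina replicate 3 (0.0514 CPM), P2ry13 in control retina replicate 1 (0.0210 CPM), Adora3 in control retina replicate 3 (0.0257 CPM), and Entpd2 in knockout microglia replicate 4 (0.124 CPM).

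The others were larger. Adora1 had 100.6 CPM in knockout retina replicate 4, where the others had 12.3 to 34.1 CPM, and 45.2 CPM in control retina replicate 3, where the others had 12.2 to 12.9 CPM. P2rx7 had 2.13 CPM in knockout retina replicate 3, against at most 0.107 CPM in the others. Entpd2 had 1.51 CPM in control microglia replicate 3 and 0 in the other controls. Control microglia replicate 2 was low for P2rx7 (252 CPM, against 299.1 to 303.0) and for Entpd1 (651.9 CPM, against 711.7 to 716.9). The causes were not tested.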

How the results depend on the processing

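Between genotypes, 0 members were called in microglia and 0 in retina under all 16 alternatives each. Between fractions, 8 members were called in controls under 13 of 14 alternatives and 7 under the replicate block, where P2rx4 had a log2 change of 8.08 (adjusted p = 0.0585). In knockouts 8 or 9 were called under all 16. The ninth was Entpd2, called lower in microglia in each of the 8 alternatives that tested it (adjusted p 0.00264 to 0.025), or Adora1 under DESeq2. Except without a filter, Entpd2 entered those tests through knockout retina, where it was high. In the interaction 1 member, Entpd1, which entered through microglia, was called under DESeq2, and 0 to 1 when a library was left out. The counts over all genes moved more. In microglia 17 genes became 8 without a filter, 237 under DESeq2, 26 under limma voom, 2 under the replicate block, 4 with the microglia marker level as a covariate, and 4 to 21 when a library was left out (4 or 5 without any control). In retina 255 became 120 without a filter, 1184 under DESeq2, 0 under the replicate block or the rod covariate, and 96 to 342 without a library (96 to 141 without control replicate 3 or knockout replicate 1, 2, 3 or 4). The interaction's 85 became 1090 under DESeq2, 145 under limma voom, 9 under the replicate block, and 51 to 143 without a library. Some log2 changes that were not called turned sign. With the microglia marker level as a covariate, P2rx4 had -0.21, P2rx7 0.22, Entpd1 0.018, Nt5e 0.043, Gpr34 0.037 and Gnao1 2.06 in microglia. With the rod level, which could hardly be told from genotype, Adora1 had -1.995, Entpd2 -3.12, Nt5e 0.72 and Abhd16a -0.26 in retina. Adora2a in microglia had -3.48 under limma voom and -5.29 under the replicate block. Leaving out a library gave ranges of -0.24 to 0.13 for P2rx7 and -0.82 to 0.20 for Gnao1 in microglia, and -0.81 to 0.17 for Adora1 between control fractions. In the interaction it gave -7.61 to 1.19 for Entpd2 and -0.79 to 0.39 for Nt5e. The cause was not tested. Depth limits the genes with 0 to a few counts, where 3 counts stood for 0.0631 to 0.0929 CPM.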
